A study of Mus musculus with 23 samples.

Results

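The genes described here belong to major histocompatibility complex (MHC) class II antigen presentation and to the dendritic cell lineage: H2-Aa, H2-Ab1, H2-Eb1, Cd74, Ciita, Zbtb46, Batf3, Irf4 and Cd209a, 9 of 21627 protein-coding genes. The assay was ATAC-seq, a measure of chromatin accessibility that uses a transposase to cut open DNA, and each of 23 mouse libraries has its own list of peaks. Overlapping peaks of all libraries were merged into 155137 regions. A region was given to one of the 9 genes where its nearest mm10 protein-coding gene body, within 50 kb, was that gene, which took in 105 regions. Ciita had 24 of them, Batf3 21, Zbtb46 14, H2-Eb1 10, Irf4 10, Cd74 9, H2-Ab1 6, H2-Aa 6 and Cd209a 5. Of the 105, 60 lay inside a gene body, 93 lay within 10 kb of one, and the farthest was 25.0 kb from Batf3. A total of 27 regions (25.7%) had a peak in all 23 libraries, against 17.2% of all regions, and 17 (16.2%) had a peak in 1 library, against 16.7%.

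The libraries form 11 groups in 4 experiments. In the repopulation experiment, blood Ly6C-high monocytes came from untreated C57BL/6J mice (2 libraries). Repopulating liver macrophages came from Clec4f-cre/Rosa26iDTR mice, in which cells that express the Kupffer cell gene Clec4f carry the diphtheria toxin receptor, 24 h (3 libraries) or 48 h (2 libraries) after diphtheria toxin. Kupffer cells, which are liver-resident macrophages, came from mice of that strain given PBS (2 libraries). In the Nr1h3 experiment, TIM4- and TIM4+ Kupffer cells came from Nr1h3 flox/flox Clec4f-cre+/- mice, and control TIM4+ cells from Nr1h3 flox/flox mice without the Cre (2 libraries each). Nr1h3 encodes the nuclear receptor LXR alpha, and its deletion follows Clec4f expression. In the Smad4 experiment, 2 Kupffer cell libraries are titled Smad4KO and 2 Control, but their strain labels are the other way round (the flox alleles with no Cre for the libraries titled Smad4KO), and the titles were followed. In the culture experiment, bone marrow-derived macrophages (BMDM) of C57BL/6J mice were grown for 4 days and kept 24 h with the Notch ligand DLL4 or without it (2 libraries each). Titles in the repopulation experiment number the mice. Other titles give replicate or library numbers, so p-values there measure the spread between samples that may share a source.

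MHC class II molecules carry peptides from engulfed material to CD4+ T cells. H2-Aa and H2-Ab1 encode the alpha and beta chains of I-A, and H2-Eb1 the beta chain of I-E. Cd74 encodes the invariant chain, which fills the peptide groove until the late endosome. Ciita encodes the coactivator that switches these genes on from several alternative promoters of its own. Class II promoters share a conserved module, in which X and Y boxes bind the RFX, CREB-family and NF-Y factors that recruit CIITA. Zbtb46 encodes a zinc finger repressor that marks classical dendritic cells and their precursors, Batf3 an AP-1 family factor needed for cross-presenting dendritic cells, and Irf4 an interferon regulatory factor used in dendritic cells of the other classical branch. Cd209a encodes a C-type lectin of monocyte-derived dendritic cells. Kupffer cells and other tissue macrophages also carry class II molecules.

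The promoter windows below reach from 250 bases before to 50 bases after the gene start and are given as RefSeq sequence of GRCm38.p6. They show 2 class II promoters that had a peak in all libraries, and 2 dendritic gene promoters, of which Batf3 had a peak in all libraries and Cd209a in few. Capitals mark matches to any of 5 short motifs searched on both strands: CCAAT (Y box), TGACG (X2 box), GAGGAAG (PU.1 core), TGANTCA (AP-1) and the interferon response element. The 4 windows are H2-Aa at chr17:34287774-34288073 (minus strand), H2-Eb1 at chr17:34305617-34305916 (plus strand), Batf3 at chr1:191098164-191098463 (plus strand) and Cd209a at chr8:3748935-3749234 (minus strand), each 5′ to 3′ in the direction of the gene.
H2-Aa: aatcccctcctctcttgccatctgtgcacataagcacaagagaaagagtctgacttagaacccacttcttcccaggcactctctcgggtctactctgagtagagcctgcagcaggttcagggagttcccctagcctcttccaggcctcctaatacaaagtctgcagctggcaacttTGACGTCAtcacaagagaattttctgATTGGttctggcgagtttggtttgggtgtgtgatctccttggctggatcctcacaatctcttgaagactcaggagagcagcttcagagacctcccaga
H2-Eb1: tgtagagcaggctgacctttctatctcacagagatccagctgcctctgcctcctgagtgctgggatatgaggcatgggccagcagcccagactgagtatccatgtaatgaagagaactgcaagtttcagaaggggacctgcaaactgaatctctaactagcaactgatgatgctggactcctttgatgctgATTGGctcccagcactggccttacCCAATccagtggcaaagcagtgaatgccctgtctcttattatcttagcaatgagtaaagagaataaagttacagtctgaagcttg
Batf3: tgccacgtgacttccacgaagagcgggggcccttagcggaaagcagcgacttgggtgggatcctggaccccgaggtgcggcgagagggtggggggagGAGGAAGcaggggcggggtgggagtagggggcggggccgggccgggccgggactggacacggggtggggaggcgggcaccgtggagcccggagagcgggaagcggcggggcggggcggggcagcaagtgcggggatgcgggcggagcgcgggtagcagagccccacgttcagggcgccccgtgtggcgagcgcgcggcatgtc
Cd209a: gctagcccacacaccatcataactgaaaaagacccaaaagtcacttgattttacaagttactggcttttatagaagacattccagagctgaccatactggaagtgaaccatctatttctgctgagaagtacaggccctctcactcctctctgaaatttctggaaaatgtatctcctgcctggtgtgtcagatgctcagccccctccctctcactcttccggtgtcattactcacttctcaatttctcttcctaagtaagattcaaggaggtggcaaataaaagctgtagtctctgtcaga
H2-Aa held 2 overlapping TGACG matches on opposite strands, starting 74 and 71 bases before the gene start, and a CCAAT on the opposite strand 48 bases before it. H2-Eb1 held CCAAT on the opposite strand 59 bases and on the given strand 35 bases before its start. H2-Eb1 held no TGACG, so of the 2 class II windows H2-Aa had matches to both boxes searched and H2-Eb1 to CCAAT only. Batf3 held 1 GAGGAAG, 153 bases before its start, and Cd209a and Irf4 held no match. Across 32851 promoters of this length, CCAAT was present in 37.4%, TGACG in 20.8%, GAGGAAG in 13.6%, TGANTCA in 7.81% and the interferon response element in 3.44%. Of the 9 genes, 6 had a window in the table, and Ciita, H2-Ab1 and Cd74 are named only. The Zbtb46 window lies deep inside the gene body, away from its upper end where the gene begins, and was not used. A peak was called over the H2-Aa, H2-Eb1, Batf3 and Irf4 windows in all 23 libraries and over the Cd209a window in 4.

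Library depth ran between 10.4 and 18.4 M tags, and 15.4% to 54.7% of the tags fell in peaks. The 9 genes had 44 to 70 regions with a peak per library. Of 8 Kupffer cell genes, 6 had a peak over a gene end in Kupffer cells (PBS), against 2 in blood monocytes, and of 6 classical monocyte genes 0 to 1 against 4. Clec4f had no such peak in the libraries titled Smad4KO, and Timd4 had none in Nr1h3-KO TIM4- libraries. Of 6 dendritic cell marker genes, Xcr1, Clec9a and Itgae had no gene-end peak in any library. The dendritic marker count was 2 in Nr1h3-KO TIM4- libraries (Flt3 and Ccr7), against 0 in KO TIM4+ and control libraries, and 3 in BMDM with DLL4, against 2 in untreated BMDM. In the repopulation experiment it was 1 in blood, 1 to 2 at 24 h and at 48 h, and 0 to 1 in Kupffer cells (PBS). It was 0 to 1 in the libraries titled Smad4KO and 0 in those titled Control. Of 6 B cell genes, 0 to 1 had a gene-end peak at 24 h and at 48 h, against 0 in blood, and 1 with DLL4, against 0 to 1 without, with 0 in all other groups. Those found were Cd79a or Cd79b, and Ms4a1, Pax5 and Ebf1 had none in any library. Of 6 T and NK cell genes, 2 had one in blood and at 24 h and 48 h and 0 to 2 in the other groups. Those were Tcf7 and Klrb1c, and Cd3e, Cd3d, Cd3g and Ncr1 had none. Of 6 neutrophil genes, 3 had one in blood, 2 to 4 at 24 h, 3 at 48 h, 2 in Kupffer cells (PBS), 1 to 2 in the Nr1h3 and Smad4 experiments and 4 in BMDM. Hepatocyte genes had none, and endothelial and stellate cell genes at most 1 of 6. The macrophage factor Spi1 had no gene-end peak in the lists used here either. A region at Nr1h3 (chr2:91189796-91190011) had a peak in the 4 Nr1h3-KO libraries and in no other. No region of Smad4 told the titled Smad4KO and Control libraries apart.

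Regions with a peak in every library of both groups were compared by limma on log2(normalised tag count + 1), centred on each library's median, with Benjamini-Hochberg adjustment over all such regions and a threshold of 0.05. A positive log2 difference means a higher value in the first group named. In liver macrophages 24 h after toxin, against blood monocytes, 11 of 37 member regions (29.7%) were higher and 4 (10.8%) lower, where 16.7% of all tested regions were higher and 9.33% lower. At 48 h against 24 h, 1 of 39 (2.56%) was higher and 0 lower, beside 1.92% and 3.53% of all regions, and 5 were higher and 2 lower at an unadjusted p under 0.05. In Kupffer cells against 48 h macrophages, 4 of 40 (10.0%) were higher and 0 lower, beside 13.7% and 12.6% of all regions. In Kupffer cells against blood monocytes, 16 of 38 (42.1%) were higher and 7 (18.4%) lower, beside 25.7% and 25.3%. The members' shares of higher calls stood above those of all regions in both comparisons with blood, and below them in Kupffer cells against 48 h macrophages. The 2 comparisons with blood share the blood libraries. The median log2 difference of the members was 0.16 at 24 h against blood (all regions 0.09), -0.05 at 48 h against 24 h (-0.08), -0.02 in Kupffer cells against 48 h (-0.01) and 0.44 in Kupffer cells against blood (0.00). Library medians before centring differed by -0.27, 0.16, -0.28 and -0.39 on the log2 scale in these 4 comparisons. Without centring the members' higher and lower counts were 8 and 5 at 24 h against blood, 2 and 2 in Kupffer cells against 48 h, and 8 and 7 in Kupffer cells against blood. Leaving out blood replicate 2 gave 9 calls in place of 15 at 24 h, and leaving out 48 h replicate 1 gave 2 in place of 4 in Kupffer cells against 48 h. The single call at 48 h against 24 h was lost without either 48 h library or without 24 h replicate 1 or 2, and 2 were called without 24 h replicate 3.

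In the Nr1h3 experiment, 5 of 38 member regions (13.2%) were higher and 0 lower in KO TIM4+ cells against control TIM4+ cells, beside 4.86% and 3.91% of all regions. In KO TIM4- cells against the same controls, 9 of 44 (20.5%) were higher and 1 (2.27%) lower, beside 7.03% and 6.68%. In KO TIM4- against KO TIM4+ cells, 0 of 38 passed in either direction, also at an unadjusted p under 0.05, beside 0.607% higher and 1.50% lower of all regions. These counts depend on centring, since library medians differed by -0.31, 0.40 and 0.75 on the log2 scale in these 3 comparisons. Without centring, 0 regions passed in KO TIM4+ against control cells, 18 were higher and 0 lower in KO TIM4- against control cells, and 29 were higher in KO TIM4- against KO TIM4+ cells. With quantile normalisation 4, 2 and 0 passed. KO TIM4+ calls numbered 1 without KO TIM4+ replicate 1, 2 without control replicate 1 and 2 without control replicate 2. KO TIM4- calls numbered 4 without KO TIM4- replicate 2, 6 without control replicate 1 and 3 without control replicate 2. In libraries titled Smad4KO against those titled Control, 0 of 41 passed, and 3 were higher and 0 lower at an unadjusted p under 0.05 (all regions 1.57% higher, 1.50% lower). In BMDM with DLL4 against untreated BMDM, 7 of 51 (13.7%) were higher and 0 lower, beside 2.36% and 1.52% of all regions. Library medians differed there by 0.03. Without DLL4 replicate 1 the DLL4 count was 3, and without untreated replicate 1 it was 1, an H2-Ab1 region.

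**Figure D1:**
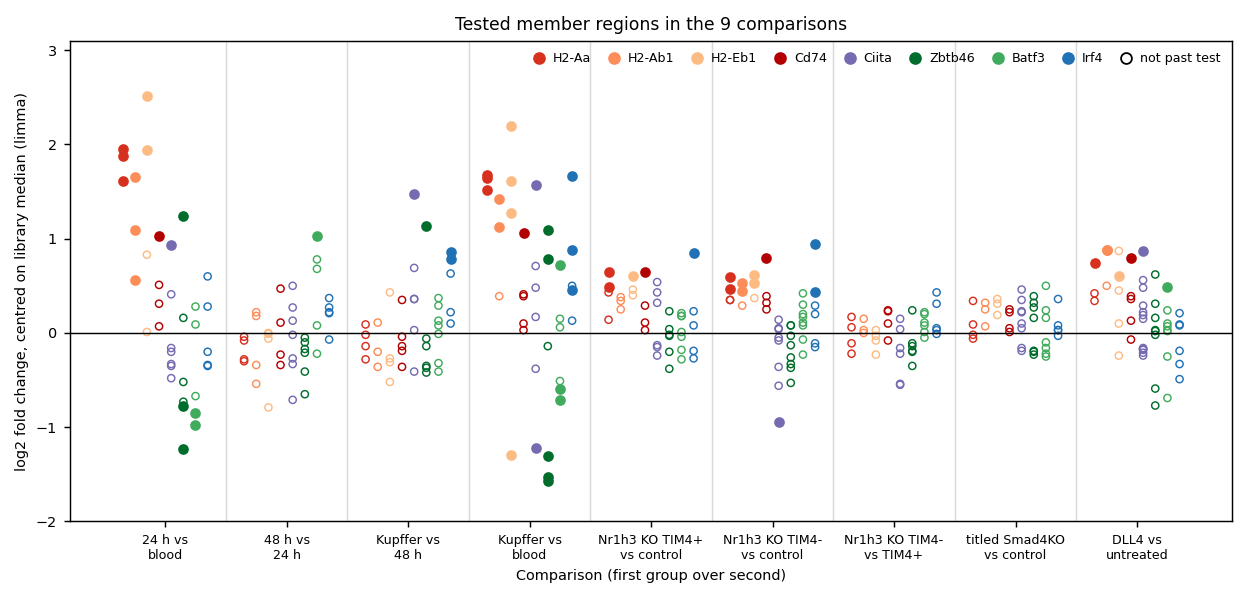
Log2 difference in centred normalised tag count of every tested member region in each of the 9 comparisons, by gene, with filled points for regions past an adjusted p of 0.05 and 1 point per region. Class II points lie above 0 in most cases in 24 h macrophages and Kupffer cells against blood. There 9 of 14 and 9 of 15 were higher, beside 16.7% and 25.7% of all regions. No class II point passes in the titled Smad4KO comparison.

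The class II genes H2-Aa, H2-Ab1, H2-Eb1 and Cd74 each had regions of higher signal in 24 h macrophages and in Kupffer cells than in blood monocytes. In bulk libraries, more cells with an open region and more signal per cell cannot be told apart. In 24 h macrophages against blood, 9 of 14 tested regions of these genes (64.3%) were higher and 0 lower, with a median log2 difference of 1.06. Of all regions, 16.7% were higher and 9.33% lower. B cells and dendritic cells also carry class II molecules. Of 6 B cell marker genes, 0 to 1 had a gene-end peak at 24 h, against 0 in blood. Of 6 dendritic marker genes, 1 to 2 had one at 24 h, against 1 in blood. The part of either was not tested. The 9 higher regions were 3 of 3 at H2-Aa, 3 of 3 at H2-Ab1, 2 of 4 at H2-Eb1 and 1 of 4 at Cd74. The H2-Aa promoter region (chr17:34287819-34288074), which overlaps the window printed above, had normalised tag counts of 32.6 and 24.0 in blood monocytes, 135, 84.4 and 59.7 in 24 h macrophages, 79.3 and 80.7 in 48 h macrophages, and 56.9 and 85.3 in Kupffer cells. Every liver library was above both blood libraries, and the 3 liver groups overlapped one another. The log2 difference was 1.88 ± 0.28 (SE) at 24 h against blood (adjusted p = 1.1e-05, limma) and 1.68 ± 0.28 in Kupffer cells against blood (adjusted p = 8.6e-07, limma). The H2-Eb1 promoter region (chr17:34305696-34306102) had 22.8 and 29.6 in blood, 110, 99.9 and 56.0 at 24 h, 90.6 and 92.4 at 48 h, and 51.2 and 74.8 in Kupffer cells. Here too the blood libraries were the lowest, at 1.94 ± 0.26 log2 units below 24 h macrophages (adjusted p = 2.9e-06, limma).

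Among class II regions, the largest difference from blood was at an H2-Eb1 region 0.8 kb below the gene body (chr17:34304772-34305073). It had 20.3 and 13.4 in blood monocytes, 101, 98.1 and 55.0 in 24 h macrophages, 94.1 and 88.0 in 48 h macrophages, and 48.3 and 74.8 in Kupffer cells. The log2 difference was 2.51 ± 0.30 at 24 h against blood (adjusted p = 4.8e-07) and 2.20 ± 0.32 in Kupffer cells against blood (adjusted p = 2.9e-08), both by limma. In the intergenic stretch between H2-Aa and H2-Eb1, 8.3 kb above H2-Aa (chr17:34296084-34296344), 24 h macrophages had 145, 144 and 74.9, against 31.7 and 39.5 in blood. A further region 5.8 kb above H2-Aa (chr17:34293595-34293940) had 54.3, 66.3 and 66.4 at 24 h, against 16.3 and no peak in blood. It had a peak in all liver libraries of every experiment and in no BMDM library. The lower end of H2-Ab1 (chr17:34263021-34263308) had 118, 87.2 and 59.7 at 24 h, against 39.9 and 25.4 in blood (log2 difference 1.65 ± 0.28, adjusted p = 5.5e-05, limma). A region 5.2 kb below H2-Ab1 differed less, with 130, 122 and 92.0 against 80.6 and 105, and its log2 difference of 0.56 ± 0.19 (adjusted p = 0.024, limma) did not pass without centring (0.30, adjusted p = 0.46).

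Cd74 had its strongest signal over the lower end of its gene body (chr18:60803550-60804136). It had 84.7 and 73.3 in blood monocytes, 172, 148 and 95.8 in 24 h macrophages, 142 and 100 in 48 h macrophages, and 106 and 149 in Kupffer cells. All liver libraries were above both blood libraries. The log2 difference from blood was 1.03 ± 0.21 at 24 h (adjusted p = 4.2e-04) and 1.06 ± 0.20 in Kupffer cells (adjusted p = 1.0e-05), both by limma. Without centring the Kupffer cell difference was 0.67 (adjusted p = 0.088), and without blood replicate 2 the 24 h call was lost (adjusted p = 0.068, limma). The 3 other Cd74 regions tested at 24 h did not pass.

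No class II region passed at 48 h against 24 h (0 of 16) or in Kupffer cells against 48 h macrophages (0 of 16), and the log2 differences ran between -0.79 and 0.47 and between -0.52 and 0.43. Of all regions, only 1.92% were higher and 3.53% lower at 48 h against 24 h. In Kupffer cells against 48 h macrophages, 13.7% of all regions were higher and 12.6% lower. In Kupffer cells against blood, 9 of 15 were higher and 1 lower, beside 25.7% and 25.3% of all regions. The lower one lay inside H2-Eb1 (chr17:34313497-34313755), with 11.4 and 16.3 in Kupffer cells, against 44.8 and 47.2 in blood, a log2 difference of -1.29 ± 0.33 (adjusted p = 7.4e-04, limma). A neighbouring region of the same gene went the other way (chr17:34312298-34312576), with 28.4 and 44.1 in Kupffer cells, against 12.2 and 28.9 in blood (1.27 ± 0.33, adjusted p = 0.0011, limma). The 2 blood libraries stood far apart at that region.

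**Figure D2:**
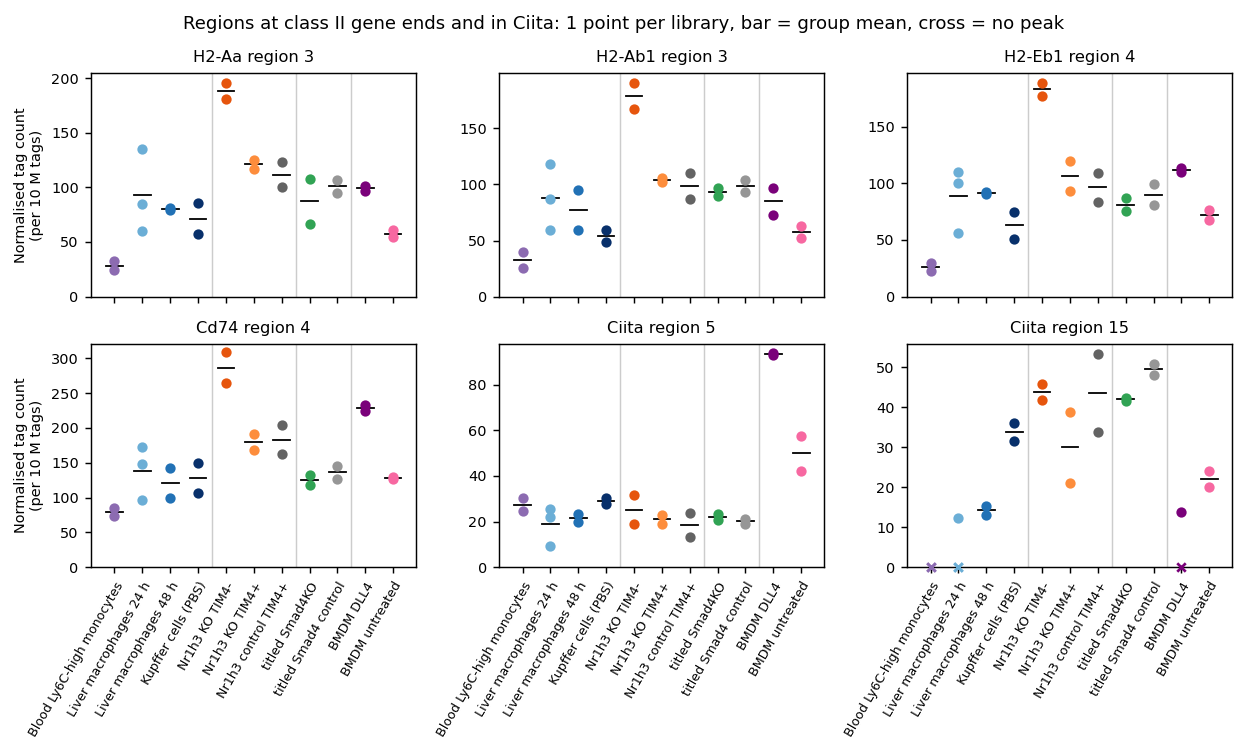
Normalised tag count (per 10 M tags) in each library at 1 region each of H2-Aa, H2-Ab1, H2-Eb1 and Cd74 and at 2 of Ciita, by group, with 1 point per library, a bar at the group mean and a cross for a library with no peak. H2-Aa region 3 and H2-Eb1 region 4 are the promoter regions, where blood monocytes, at 32.6 and 24.0 and at 22.8 and 29.6, are the lowest group and Nr1h3-KO TIM4- libraries, at 181 and 196 and at 177 and 189, the highest. These counts are not centred and the groups come from several experiments. With each library centred on its median, blood stays lowest. KO TIM4- libraries (0.7 and 0.9, and 0.7 and 0.88, log2, relative to the region's mean) then overlap KO TIM4+ libraries (1.13 and 0.76, and 1.1 and 0.47).

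In the Nr1h3 experiment, class II regions were higher in both knockout populations on the centred scale. Against the TIM4+ controls, 4 of 14 (28.6%) were higher in KO TIM4+ and 7 of 14 (50.0%) in KO TIM4- cells, with 0 lower in both. Of all regions, 4.86% and 7.03% were higher and 3.91% and 6.68% lower. The median log2 differences of the class II regions were 0.39 and 0.42. The region 8.3 kb above H2-Aa had 267 and 244 in KO TIM4- cells and 167 and 186 in KO TIM4+ cells, against 157 and 123 in control cells. All KO libraries were above both controls. The log2 difference was 0.47 ± 0.15 in KO TIM4- (adjusted p = 0.017) and 0.65 ± 0.15 in KO TIM4+ cells (adjusted p = 4.4e-04), both by limma. The H2-Eb1 region 0.8 kb below the body had 169 and 196 in KO TIM4- cells and 108 and 113 in KO TIM4+ cells, against 112 and 72.6 in control cells, with log2 differences of 0.61 ± 0.16 (adjusted p = 0.0025) and 0.60 ± 0.16 (adjusted p = 0.0066) by limma. A Cd74 region 8.4 kb below the gene (chr18:60795130-60795410) had 126 and 128 in KO TIM4- and 63.2 and 77.8 in KO TIM4+ cells, against 53.2 and 56.8 in control cells. Its log2 differences were 0.79 ± 0.18 (adjusted p = 2.6e-04) and 0.65 ± 0.19 (adjusted p = 0.013) by limma. The 2 KO populations share the control libraries. KO TIM4- cells differ from these TIM4+ controls in both genotype and TIM4 state, which cannot be told apart without TIM4- controls. KO TIM4- libraries had the highest median signal of the experiment, 85.4 and 80.1, against 43.4 and 52.6 in KO TIM4+ and 64.2 and 50.8 in control libraries. Of 6 dendritic marker genes, 2 had a gene-end peak in KO TIM4- libraries, against 0 in KO TIM4+ and control libraries. The part of either in these results was not tested. On the centred scale no class II region passed between KO TIM4- and KO TIM4+ cells (0 of 15, log2 differences between -0.23 and 0.24). Few of all regions did, with 0.607% higher and 1.50% lower. With quantile normalisation, the H2-Aa, H2-Ab1 and H2-Eb1 calls in KO TIM4- cells were lost (adjusted p between 0.055 and 0.18 for the named regions, limma), and without centring all calls in KO TIM4+ cells were.

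In the libraries titled Smad4KO against those titled Control, no class II region passed (0 of 14, median log2 difference 0.21). Of all regions, 1.57% were higher and 1.50% lower. The H2-Aa promoter region had 66.4 and 108 in libraries titled Smad4KO, against 95.1 and 107 in those titled Control, and the groups overlapped.

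DLL4-treated BMDM had higher class II signal than untreated BMDM at 5 of 16 regions (31.2%), with 0 lower and a median log2 difference of 0.43. Of all regions, 2.36% were higher and 1.52% lower. The H2-Aa promoter region had 101 and 97.1 with DLL4, against 60.8 and 54.3 without, a log2 difference of 0.74 ± 0.17 (adjusted p = 0.0038, limma). At H2-Ab1, the region 5.2 kb below the body had 134 and 104 against 65.7 and 58.7, and the region 1.3 kb below (chr17:34261488-34261888) had 119 and 114 against 69.4 and 54.3. Both log2 differences were 0.88 ± 0.17 (adjusted p = 1.1e-04 and 1.3e-04, limma). The lower end of Cd74 had 224 and 233 with DLL4, against 127 and 129 without (0.79 ± 0.13, adjusted p = 3.1e-06, limma). The H2-Eb1 promoter region had 110 and 114 against 76.8 and 67.4 (0.60 ± 0.16, adjusted p = 0.016, limma), and this call was lost when any 1 of the 4 libraries was left out. The H2-Aa and Cd74 calls were also lost without untreated replicate 1, where only an H2-Ab1 region still passed. With DLL4 no library overlapped the untreated ones at these 5 regions. Dendritic marker genes with a gene-end peak numbered 3 of 6 with DLL4, against 2 without, and B cell marker genes 1, against 0 to 1, and their part was not tested.

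At Ciita, the class II coactivator, 1 of 7 regions (14.3%) was higher and 0 lower in 24 h macrophages against blood, beside 16.7% and 9.33% of all regions, with a median log2 difference of -0.20. In Kupffer cells against blood 1 of 6 (16.7%) was higher and 1 lower, beside 25.7% and 25.3%, so these shares were near or below those of all regions. The region higher at 24 h lies 3.7 kb below the gene body (chr16:10475943-10476284). It had 29.0, 27.2 and 21.8 at 24 h, against 17.9 and 14.1 in blood, a log2 difference of 0.93 ± 0.33 (adjusted p = 0.037, limma) that was 0.67 without centring (adjusted p = 0.22). In Kupffer cells it had 37.9 and 36.4, which was 1.57 ± 0.34 log2 units above blood (adjusted p = 7.2e-05, limma). A region inside the gene (chr16:10498136-10498441) had no peak in blood, 12.2 in 1 of the 3 libraries at 24 h, 13.1 and 15.4 at 48 h, and 36.0 and 31.6 in Kupffer cells. Kupffer cells were 1.47 ± 0.33 log2 units above 48 h macrophages there (adjusted p = 6.0e-04, limma). The same region had a peak in all libraries of the Nr1h3 and Smad4 experiments, between 21.1 and 53.2. Near the upper end, a region at chr16:10521212-10521564 went the other way, with 16.1 and 8.63 in Kupffer cells, against 30.9 and 47.2 in blood (-1.22 ± 0.35, adjusted p = 0.0026, limma).

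In the Nr1h3 experiment 0 of 6 Ciita regions passed in KO TIM4+ against control cells, beside 4.86% higher and 3.91% lower of all regions. In KO TIM4- cells 0 were higher and 1 of 8 (12.5%) lower, beside 7.03% and 6.68% of all regions. The lower one, inside the gene (chr16:10489086-10489445), had 14.7 and 12.5 in KO TIM4- cells, against 19.7 and 20.5 in control cells, a log2 difference of -0.94 ± 0.32 (adjusted p = 0.029, limma). Without centring it was -0.54 (adjusted p = 0.19). None of 8 passed in the titled Smad4KO comparison, beside 1.57% higher and 1.50% lower of all regions. In BMDM with DLL4, 1 of 13 (7.69%) was higher, beside 2.36% of all regions. It was the region over the lower end of the gene body (chr16:10479888-10480195), which had 93.7 and 93.0 with DLL4, against 57.7 and 42.0 without. The log2 difference was 0.87 ± 0.18 (adjusted p = 7.0e-04, limma), and it was lost without untreated replicate 1 (adjusted p = 0.060). Before centring, that region stayed between 9.48 and 31.6 in all other groups, which come from other experiments. With each library centred on its median, DLL4 libraries were still the highest (1.18 and 1.17, log2, relative to the region's mean). Libraries titled Smad4KO (0.84 and 0.37) then overlapped untreated BMDM (0.52 and 0.2).

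**Figure D3:**
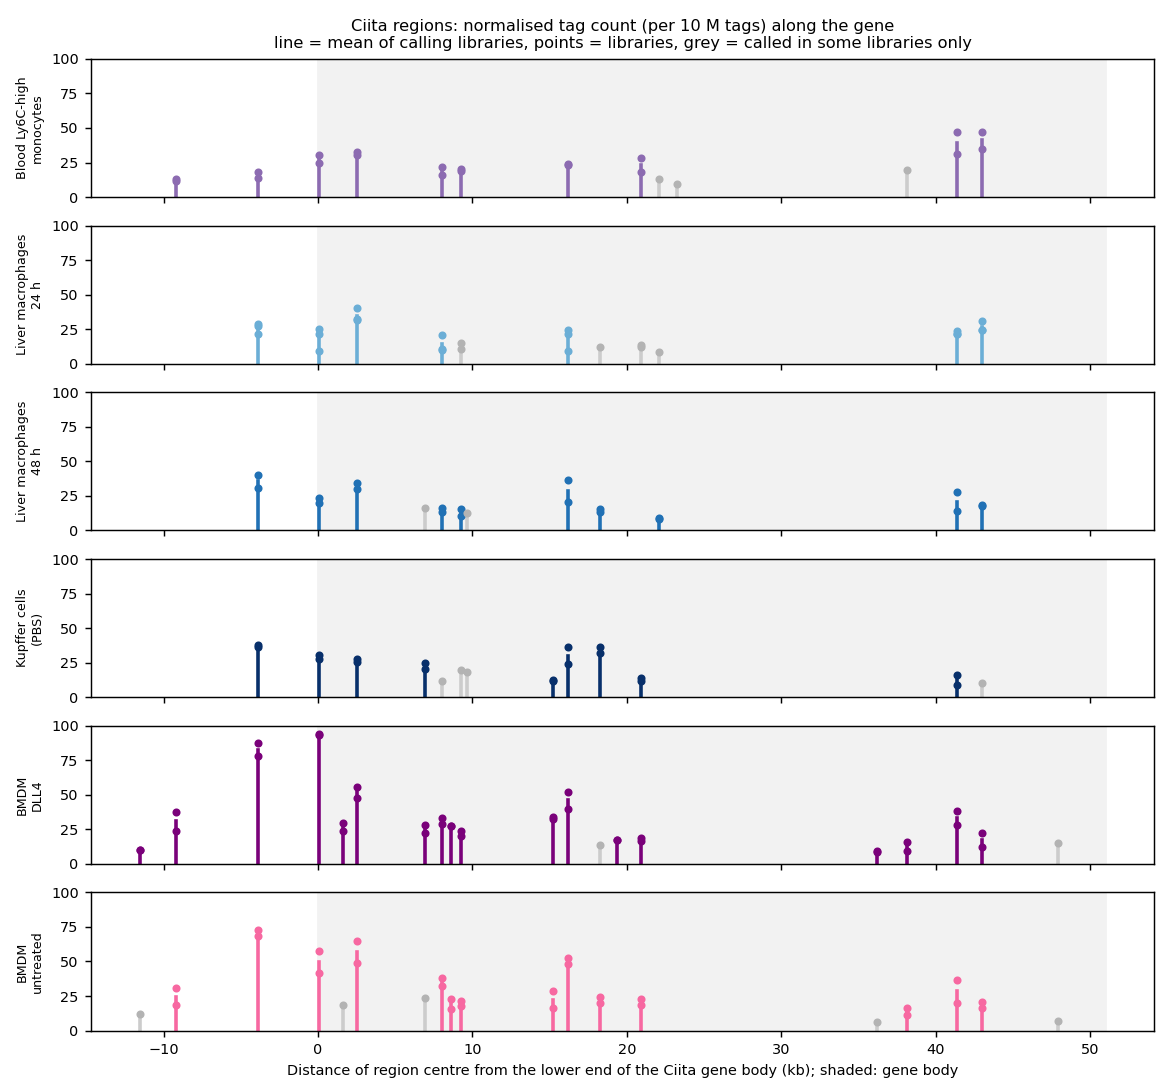
Normalised tag count at each Ciita region along the gene, by distance from the lower end of the gene body in kb, in 6 groups, with a line to the mean of the libraries with a peak, 1 point per library and grey where only some libraries of the group have a peak. Signal over the lower end (distance 0) is highest with DLL4, at 93.7 and 93.0, and the region at 36.0 and 31.6 in Kupffer cells has no peak in blood monocytes.

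At the dendritic lineage genes Zbtb46, Batf3 and Irf4, 1 of 16 regions (6.25%) was higher and 4 (25.0%) lower in 24 h macrophages against blood, beside 16.7% and 9.33% of all regions, with a median log2 difference of -0.34. In Kupffer cells against blood 6 of 17 (35.3%) were higher and 5 (29.4%) lower, beside 25.7% and 25.3%, a spread over both directions like that of all regions. Zbtb46 had 1 region higher and 2 lower of 6 at 24 h, and 2 higher and 3 lower of 6 in Kupffer cells. Inside this gene, a region at chr2:181411127-181411395 had 73.3 and 104 in blood, 53.4, 41.8 and 33.2 at 24 h, 27.9 and 44.7 at 48 h, and 23.7 and 21.1 in Kupffer cells. All liver libraries were below both blood libraries, and Kupffer cells were the lowest, at -1.53 ± 0.27 log2 units from blood (adjusted p = 3.2e-06, limma). A second one (chr2:181436312-181436625) had 16.9, 16.3 and 25.6 at 24 h, against 52.1 and 59.9 in blood, a log2 difference of -1.23 ± 0.32 (adjusted p = 0.0046, limma). Toward the upper end of the gene, a region at chr2:181483559-181483821 went up, with 34.6, 37.2 and 40.8 at 24 h, against 16.3 and 21.1 in blood (1.24 ± 0.31, adjusted p = 0.0032, limma). Its call was lost without blood replicate 2 (adjusted p = 0.051). The strongest Zbtb46 region (chr2:181459397-181459621) had 230, 197 and 187 at 24 h, against 188 and 256 in blood, and the groups overlapped.

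Batf3 had 0 regions higher and 2 lower of 5 (40.0%) in 24 h macrophages against blood, beside 16.7% and 9.33% of all regions. A region 2.2 kb above the gene body (chr1:191111156-191111539) had 143 and 159 in blood, 59.0, 54.5 and 78.7 at 24 h, 68.0 and 83.6 at 48 h, and 81.5 and 70.9 in Kupffer cells, with no overlap between blood and liver. The log2 difference was -0.98 ± 0.21 at 24 h (adjusted p = 9.1e-04) and -0.59 ± 0.19 in Kupffer cells (adjusted p = 0.0086), both by limma. The region over the Batf3 promoter window had 126, 133 and 94.8 at 24 h, against 97.7 and 137 in blood, and did not pass. The single region higher at 48 h against 24 h belonged to Batf3, 10.4 kb above the body (chr1:191119338-191119642), with 53.2 and 65.3 at 48 h, against 28.1, 20.0 and 28.5 at 24 h (1.03 ± 0.29, adjusted p = 0.038, limma). Its 48 h libraries were above those of the neighbouring stages, with 37.9 and 34.5 in Kupffer cells. The difference of Kupffer cells from 48 h macrophages did not pass (-0.41 ± 0.26, adjusted p = 0.26, limma).

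Irf4 passed at 0 of 5 regions at 24 h against blood and was higher at 2 of 5 in Kupffer cells against 48 h macrophages and at 3 of 5 in Kupffer cells against blood, with 0 lower in all 3. Of all regions, 16.7%, 13.7% and 25.7% were higher and 9.33%, 12.6% and 25.3% lower in these 3 comparisons. The region over its promoter window (chr13:30749046-30749338) had 125 and 171 in blood, 101, 103 and 85.4 at 24 h, 114 and 91.7 at 48 h, and 140 and 168 in Kupffer cells. Kupffer cells were above both 48 h libraries (0.86 ± 0.18, adjusted p = 2.6e-04, limma), and on the uncentred values they overlapped blood. A region 2.3 kb above the gene body (chr13:30769297-30769574) had 15.5 and 19.0 in blood, 21.8 and 41.1 at 48 h, and 41.7 and 44.1 in Kupffer cells. Its log2 difference was 1.66 ± 0.32 in Kupffer cells against blood (adjusted p = 1.3e-05, limma). A region 0.8 kb above the body (chr13:30767790-30768055) had no peak in blood, 11.8 in 1 of 3 libraries at 24 h, 16.6 in 1 of 2 at 48 h, and 35.1 and 37.4 in Kupffer cells.

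**Figure D4:**
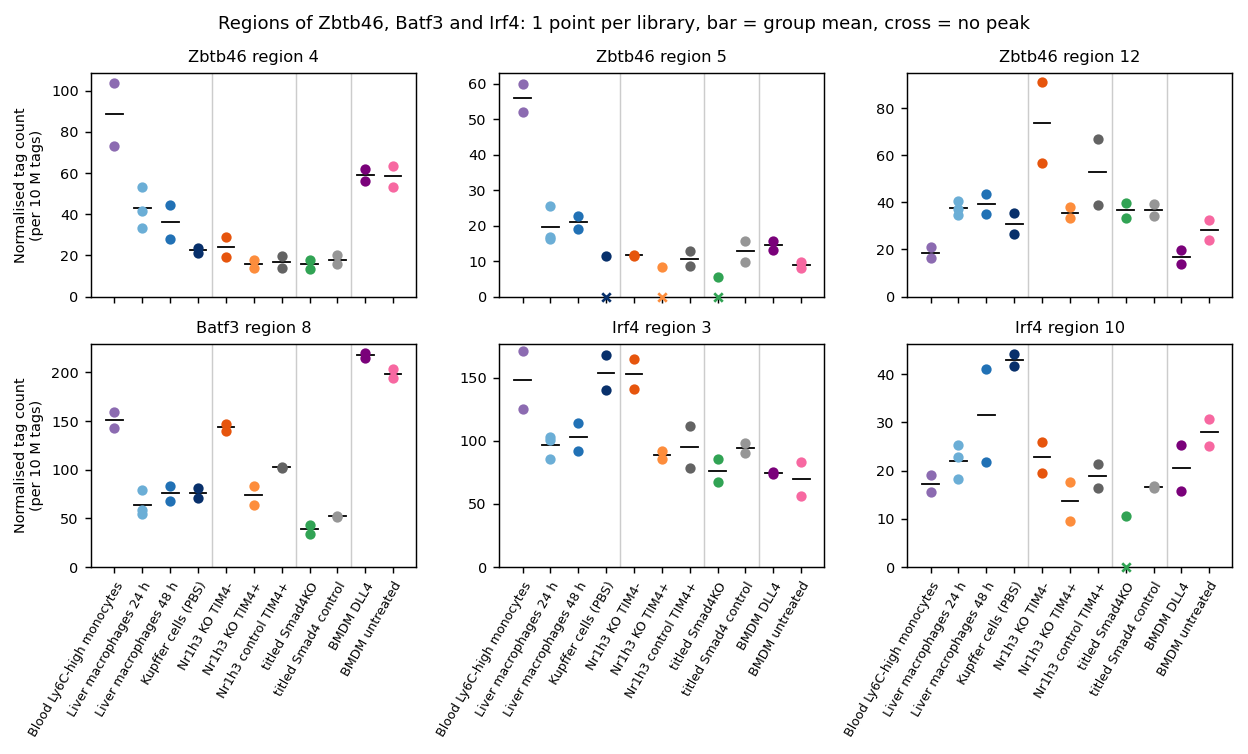
Normalised tag count (per 10 M tags) in each library at 6 regions of Zbtb46, Batf3 and Irf4, by group, with 1 point per library, a bar at the group mean and a cross for a library with no peak. Blood monocytes are highest at Zbtb46 region 4, with 73.3 and 104, and Kupffer cells (PBS) at Irf4 region 10, with 41.7 and 44.1. At Irf4 region 10, Nr1h3 control cells have 21.4 and 16.5, and Kupffer cell libraries titled Control 16.4 and 16.9. These counts are not centred.

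Against Nr1h3 control cells, dendritic gene regions were higher at 1 of 18 (5.56%) in KO TIM4+ and 2 of 22 (9.09%) in KO TIM4- cells, with 0 lower. Of all regions, 4.86% and 7.03% were higher and 3.91% and 6.68% lower. In the Nr1h3 experiment Irf4 was higher at 1 of 5 regions in KO TIM4+ and at 2 of 6 in KO TIM4- cells against control cells, and Zbtb46 and Batf3 passed at none of their regions in either. The Irf4 region inside the gene near its upper end (chr13:30764394-30764652) had 52.4 and 56.1 in KO TIM4- cells and 28.7 and 32.8 in KO TIM4+ cells, against 22.6 and 19.1 in control cells. No KO library overlapped the controls. The log2 differences were 0.94 ± 0.25 in KO TIM4- (adjusted p = 0.0033) and 0.85 ± 0.27 in KO TIM4+ cells (adjusted p = 0.029), both by limma. The KO TIM4+ call was lost without centring (0.54, adjusted p = 0.54) and without any 1 of its 4 libraries. None of 19 dendritic gene regions passed in the titled Smad4KO comparison, beside 1.57% higher and 1.50% lower of all regions. With DLL4, 1 of 22 (4.55%) was higher, beside 2.36% of all regions. It was the Batf3 promoter region (chr1:191098226-191098529), with 134 and 139 against 106 and 85.0 in untreated BMDM (0.49 ± 0.15, adjusted p = 0.037, limma). This call was lost without any 1 of the 4 libraries. With the Notch ligand, 0 of 8 Zbtb46 and 0 of 6 Irf4 regions passed.

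Cd209a had almost no peak. No library of blood monocytes, Kupffer cells, or the Nr1h3 and Smad4 experiments had one within its reach. Its 5 regions had peaks in at most 4 libraries each, at 24 h, at 48 h and in BMDM, with values between 6.76 and 23.7. The promoter region (chr8:3748773-3749033) had 12.4 in 1 of 2 libraries with DLL4, 6.76 and 7.01 in untreated BMDM, and 11.3 in 1 of 2 libraries at 48 h. No Cd209a region had a peak in every library of both groups in any comparison, so none was tested.

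Regions found in all libraries of a group and missing from all of its counterpart were counted separately, since a missing peak has no deposited value and is not a measure of closed chromatin. In 24 h macrophages against blood, 1 of 74 member regions (1.35%) was called at 24 h alone and 6 (8.11%) in blood alone, beside 3.02% and 4.49% of all regions. The first was inside H2-Ab1 (chr17:34264079-34264346), with 38.4, 57.2 and 19.9 at 24 h. Those in blood alone included H2-Eb1 (mean 24.9), H2-Aa (15.9), Ciita (12.1) and 3 regions of Batf3 (10.2 to 23.4). At 48 h against 24 h, 1 of 72 (1.39%) was called at 48 h alone, at Batf3 (mean 33.9), and 0 at 24 h alone, beside 5.09% and 0.609%. Kupffer cells had 3 of 72 (4.17%) and 48 h macrophages 4 (5.56%), beside 4.53% and 12.8%. Kupffer cells against blood had 8 of 75 (10.7%), and blood also 8 (10.7%), beside 12.8% and 15.9%. The Kupffer cell regions were at Ciita (3), Batf3 (2), Irf4 (2) and Zbtb46 (1), with none at a class II gene, and a Batf3 region 17.1 kb above the body was the strongest in blood alone (mean 91.5). In the Nr1h3 experiment, KO TIM4+ cells had 0 of 62 and control cells 2 (3.23%), beside 1.06% and 7.69%. KO TIM4- cells had 4 of 66 (6.06%) and control cells 1 (1.52%), beside 6.60% and 3.50%, and 2 of the 4 were at Irf4 (means 26.2 and 27.4). KO TIM4- cells had 4 of 65 (6.15%) and KO TIM4+ cells 0, beside 10.9% and 0.559%. The titled Smad4KO comparison had 0 of 60 in both directions, beside 1.24% and 6.97%. BMDM with DLL4 had 4 of 81 (4.94%) and untreated BMDM 3 (3.70%), beside 2.10% and 2.00%, the strongest with DLL4 at Ciita (mean 17.2) and the strongest without at H2-Eb1 (mean 21.4). These shares were above those of all regions in blood against 24 h macrophages and in both directions with DLL4, and at or below them in the rest. Leaving out a library asks less of its group, and every one left out raised these counts, to between 8 and 11 in the first comparison (7 with all libraries), 2 and 8 in the second (1), 10 and 14 in the third (7), 18 and 23 in the fourth (16), 5 and 7 in KO TIM4+ (2), 7 and 11 in KO TIM4- (5), 7 and 12 between the KO groups (4), 2 and 7 in the titled Smad4KO comparison (0), and 8 and 16 with DLL4 (7).

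Genes of the same pathways were counted from lists that do not hold the 9 members. The list of further class II pathway genes holds 20, of which 19 had a tested region in 24 h macrophages against blood. Of their 77 regions, 16 (20.8%) were higher and 3 (3.90%) lower, beside 16.7% and 9.33% of all regions (median log2 difference 0.17, all regions 0.09). Rfxap, a subunit of the RFX complex, was among the higher (1.89 ± 0.33, adjusted p = 7.2e-05, limma), as was the costimulatory gene Cd86 (0.98 ± 0.26, adjusted p = 0.0058, limma). Cd80 and Nfya each had 1 region higher and 1 lower. Their largest differences were -1.37 ± 0.25 (adjusted p = 1.2e-04) and -1.27 ± 0.32 (adjusted p = 0.0036), both by limma. In Kupffer cells against 48 h macrophages, 3 of 87 (3.45%) were higher and 12 (13.8%) lower, beside 13.7% and 12.6%, so the share of lower regions was near that of all regions. Among the lower was H2-DMa, a subunit of the peptide exchange factor, at -0.61 ± 0.17 (adjusted p = 0.0042, limma). Of 25 regions of 12 class I pathway genes, 0 were higher and 12 (48.0%) lower in that comparison, with a median of -0.53, among them the peptide transporter gene Tap1 (-0.70 ± 0.23, adjusted p = 0.019, limma) and the immunoproteasome gene Psmb8 (-1.14 ± 0.25, adjusted p = 3.9e-04, limma). Of 20 other dendritic cell genes, 18 had tested regions there, and of those 100 regions 2 (2.00%) were higher and 14 (14.0%) lower, where the share of lower regions was again near the 12.6% of all regions. At 24 h against blood 7 of 88 (7.95%) were higher and 10 (11.4%) lower, beside 16.7% and 9.33%. Irf8, a factor of the Batf3-dependent branch, held both the most strongly higher region of that list at 24 h (2.93 ± 0.26, adjusted p = 2.6e-09, limma) and 2 lower ones. In KO TIM4- against control cells, 14 of 86 class II pathway regions (16.3%) were higher and 6 (6.98%) lower, beside 7.03% and 6.68% of all regions, with H2-Oa at 1.07 ± 0.26 (adjusted p = 9.7e-04, limma), and in KO TIM4+ cells 9 of 80 (11.2%) were higher and 0 lower, beside 4.86% and 3.91%. With DLL4, 2 of 103 class II pathway regions (1.94%) were higher and 0 lower, 0 of 35 class I regions were higher and 2 (5.71%) lower, and 4 of 142 dendritic regions (2.82%) were higher and 1 (0.704%) lower, beside 2.36% and 1.52% of all regions.

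The level of the strongest shared region of each gene, in normalised tag count over the 11 groups, had the same group at the top for 6 of the 8 genes with a peak in all libraries, before centring. Nr1h3-KO TIM4- cells led at H2-Aa (255 ± 16.2, SD, n = 2), H2-Ab1 (267 ± 9.97), H2-Eb1 (183 ± 8.27), Cd74 (286 ± 31.9), Batf3 (152 ± 12.4) and Irf4 (208 ± 0.849). At H2-Aa, KO TIM4+ cells came next (177 ± 13.5), and the 2 groups did not overlap. The neighbours from BMDM with DLL4 (149 ± 23.5) down to the libraries titled Smad4KO (84.3, from 73.7 and 94.9) each overlapped the next or lay within its spread. Blood monocytes were last (35.6 ± 5.52) and stood apart. At H2-Eb1, blood was also last (26.2 ± 4.81), below Kupffer cells (63.0 ± 16.7). At Cd74, BMDM with DLL4 came second (228 ± 6.22) and blood last (79.0 ± 8.06). H2-Ab1 was lowest in untreated BMDM (62.2 ± 4.95). Zbtb46 was highest in BMDM with DLL4 (234 ± 1.48) and blood (222 ± 47.9), which overlapped, and lowest in the libraries titled Smad4KO (86.7 ± 7.28). Ciita was highest in untreated BMDM (57.0 ± 11.4) and BMDM with DLL4 (51.7 ± 5.23), which overlapped. These levels are not centred, and library medians ran between 31.8 in a library titled Smad4KO and 99.9 in one with DLL4. With each library centred on its median, the order changed. KO TIM4- cells then led at 2 of the 8 genes, H2-Ab1 and Irf4, KO TIM4+ cells at H2-Aa, Cd74 and Ciita, the libraries titled Smad4KO at H2-Eb1 and Batf3, and 24 h macrophages at Zbtb46. At H2-Aa the centred log2 values, relative to the region's mean, were 0.84 and 0.80 in KO TIM4- and 1.12 and 1.01 in KO TIM4+ cells. At Zbtb46 they were 0.37, 0.20 and 0.26 at 24 h and 0.01 and -0.01 with DLL4, and KO TIM4- cells were the lowest (-0.10 and -0.48). Blood monocytes were last at H2-Aa, H2-Eb1 and Cd74, and untreated BMDM at H2-Ab1, on both scales. These orders hold for 1 region per gene, which lies 10.4 kb below Irf4 and 5.2 kb below H2-Ab1. Over the Irf4 promoter window, Kupffer cells (PBS) had the highest centred values (0.66 and 0.71), against 0.34 and 0.2 in KO TIM4- cells. At the H2-Ab1 region, KO TIM4- cells (0.74 and 0.91) overlapped the libraries titled Smad4KO (0.74 and 0.84).

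The genes whose strongest shared region had the most similar pattern were ranked by Pearson r over the 11 group means of the centred values, among 12980 genes. H2-Aa was most like Lag3 (r = 0.98) and H2-Eb1 (0.98), and H2-Eb1 most like Pcgf1 (0.98) and H2-Aa (0.98). H2-Ab1 was nearest to Fam13b (0.97), Cd74 to H2bc4 (0.97), Ciita to Fis1 (0.93), Zbtb46 to Ulk1 (0.95), Batf3 to Mymx (0.94) and Irf4 to Rbpms (0.98). H2-Ab1 was also among the 3 nearest to Batf3 (0.94). The points are group means that share libraries and centring, and the coefficients are descriptions with no test.

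**Figure D5:**
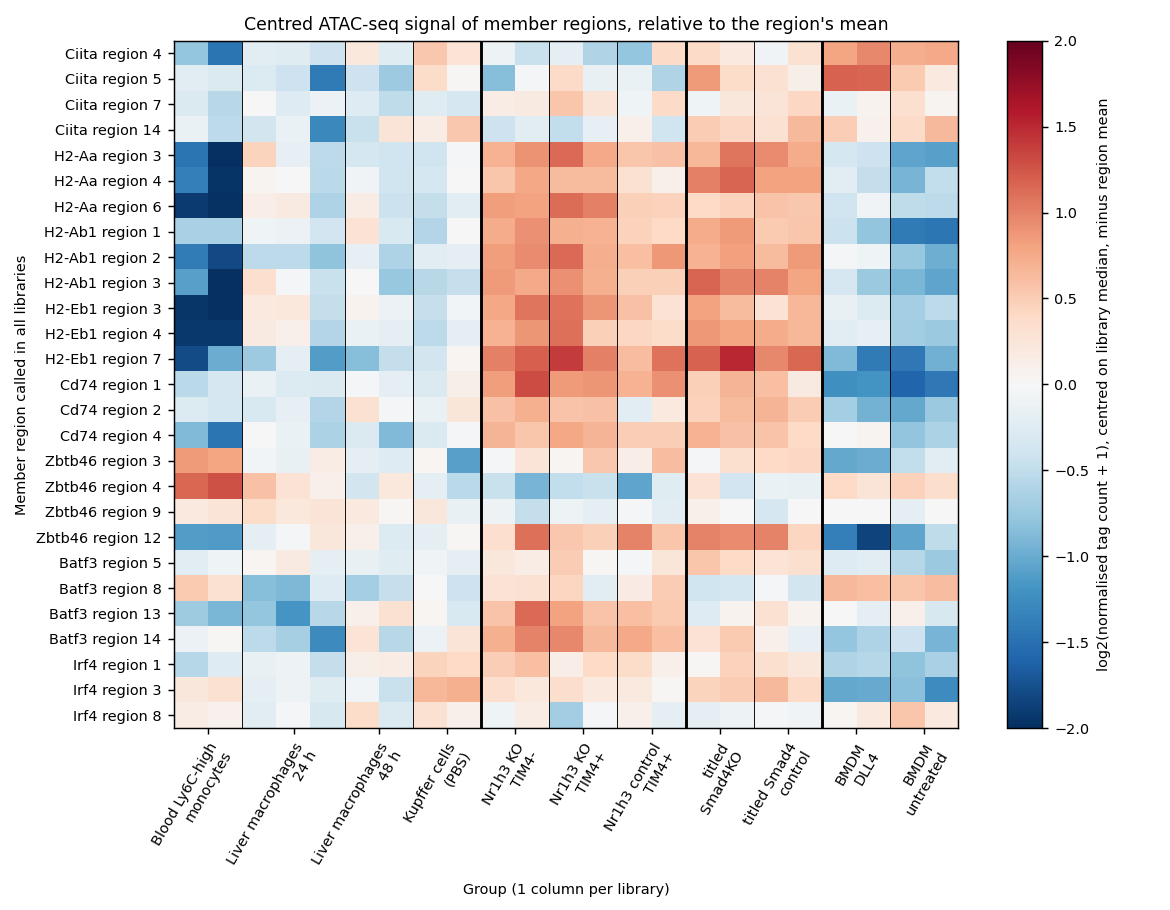
Centred log2 signal of the 27 member regions with a peak in all 23 libraries, with regions in rows by gene and libraries in columns by group. The 3 H2-Aa rows and the rows of the H2-Eb1 promoter region and its neighbour 0.8 kb below the body are lowest in the 2 blood monocyte libraries.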

How the data were processed

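ATAC-seq peak lists of 23 mouse libraries were analysed. The submitters' processing notes name Bowtie2, HOMER and the mm10 build, with versions that are not given in the sources used here. Peaks were called in each library alone, without input, at a size of 200 bp, a false discovery rate of 0.001, 4-fold over the local 10 kb and a local Poisson p of 1e-04, per the file headers. The deposited signal (normalised tag count) is tags per peak scaled to 10 M tags per library. The deposited findPeaks score was used to cut lists to equal length, and the deposited ratio, the fold over local background, for a stricter filter of 6.

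Peaks on 19 autosomes and X were merged by an overlap of 1 bp (1205 of 1605886 left out) and given to genes of GRCm38.p6 with Python 3.11.15. limma 3.58.1 (trend, two-sided) ran on the 2 groups alone with a pseudocount of 1 and was tested on simulated data. The 9 genes and all lists were chosen with earlier results of these data known. Named regions were each gene's most widely called one and, per comparison, its passing region of largest difference and its strongest region called in one group alone. Other regions are given to complete a gene's account. Alternatives were no centring, quantile normalisation, a pseudocount of 8, a mean signal of 16, an overlap of 100 bp, 10 kb, a fit over a whole experiment, a replicate block and leaving out each library.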

Additional observations from a re-analysis of the deposited data

How the results depend on the processing

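Among 98 named results, the 43 that passed kept direction and side of the threshold with a pseudocount of 8, a 100 bp overlap and, for the 19 with shared replicate numbers, the replicate block. They were lost 11 times without centring, 11 times with quantile normalisation, 3 of 34 times in a fit over the whole experiment, once with a mean signal of 16 and once of 40 with a 6-fold local filter. Leaving out 1 library lost 60 of 182. The 10 kb distance alters only which regions count as members, so it could not change the result of a named region. Of the 55 that did not pass, 4 passed in the same direction and 4 in the opposite direction without centring. With the mean signal of 16, the 6-fold filter and the replicate block, 1 each passed. Leaving out 1 library made 5 of 232 pass. In Nr1h3-KO TIM4- against KO TIM4+ cells without centring, 4 regions turned direction and read 0.70 (Batf3), 0.53 (H2-Aa), 0.67 (Cd74) and 0.64 (Zbtb46).

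Counts of regions past the test without centring were 15 in Kupffer cells against blood, 0 in KO TIM4+ and 18 in KO TIM4- against control, and 29 in KO TIM4- against KO TIM4+ cells. Quantile normalisation gave 0 at 48 h against 24 h and 2 in KO TIM4- against control. A fit over the whole experiment gave 1 in Kupffer cells against 48 h and 6 in KO TIM4- against control. The 48 h against 24 h count was 0 with the 6-fold filter and with 10 kb. Replicate numbers did not pair samples (correlations of deviations 0.01, 0.00, 0.06 and -0.04), and the replicate block gave 7, 10, 0 and 7 calls in KO TIM4+ against control, KO TIM4- against control, KO TIM4- against KO TIM4+ and DLL4, beside 5, 10, 0 and 7. The other comparisons share no replicate numbers in the labels, and no block was fitted there.

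Leaving out 1 library gave 9 to 19 calls at 24 h against blood, 0 to 2 at 48 h against 24 h, 2 to 5 in Kupffer cells against 48 h, 18 to 26 in Kupffer cells against blood, 1 to 6 in KO TIM4+, 3 to 8 in KO TIM4-, 0 to 0 between KO groups and for the titled Smad4KO, and 1 to 6 with DLL4. It gave 8 to 11, 2 to 8, 10 to 14, 18 to 23, 5 to 7, 7 to 11, 7 to 12, 2 to 7 and 8 to 16 regions called in one group alone, in the same order. Those counts were 3 at 24 h, 0 at 48 h, 3 in KO TIM4-, 4 in the titled Smad4KO and 3 in DLL4 with the 6-fold filter. With lists of equal length they were 2 at 48 h, 1 in KO TIM4+, 3 in KO TIM4-, 2 between KO groups and 3 with DLL4, and 1 in KO TIM4+ with 10 kb. The causes were not tested. Depth ran between 10.4 and 18.4 M tags a library, and no setting changed it.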
